A study of Mus musculus with 8 samples.

Results

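Glycosyltransferases build the glycans of secreted and membrane proteins and of lipids, mostly in the Golgi. Several solute carriers of family 35 bring the activated sugars and sulfate that are needed across the Golgi and endoplasmic reticulum membranes. The members described here were found by symbol: every probe set whose single gene name in GEO's platform annotation begins with Galnt, B3g, B4gal, St3gal, St6gal, St8sia, Fut, Mgat, Ext, Ndst, Hs2st, Hs3st, Hs6st or Slc35 and holds a digit, plus Glce. This gave 132 genes of the 18193 with a single symbol on the array, and all 132 were found in the RefSeq gene table. A probe set was tested if its signal lay above the median of its own array on at least 4 of the 8 arrays, and a gene is represented by its brightest tested probe set, which left 83 members. The other 49 did not pass this filter and were not tested. Of the 83, 5 passed with at most 1 array of the other group above its median (B3galt6, B4galt4, Slc35b3, Slc35c2 and Galnt9).

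The study measured polysomal mRNA, the mRNA bound to ribosomes, in mouse eggs and embryos on 1-colour arrays. Oocytes at metaphase II (MII), the stage at which the egg waits for sperm, gave 4 arrays. One-cell embryos treated with alpha-amanitin, an inhibitor of RNA polymerase II, gave the other 4. Each array came from a separate batch of 160 to 500 cells, with 2 rounds of amplification by in vitro transcription. Stage and alpha-amanitin differ together between the groups and cannot be told apart. The sources used here do not give the strain, the age of the females or the hours after fertilization. Signals are relative to each array's total, so the amount of an mRNA, its share on ribosomes and the number of cells in a batch cannot be told apart either.

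In an egg, glycans are made for the zona pellucida, the coat that sperm bind, and for the plasma membrane and the cortical granules that are released at fertilization. N-glycans are built on dolichol, moved to protein in the endoplasmic reticulum and then branched, galactosylated, fucosylated and sialylated in the Golgi. Mucin-type O-glycans start with 1 N-acetylgalactosamine (GalNAc) added by a Galnt enzyme. Heparan sulfate is a long chain on proteoglycans that is polymerised by the Ext enzymes and then epimerised and sulfated.

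One-cell array 1 stood apart in signal level and MII array 2 in an RNA-quality measure, the ratio of the 3′ to the 5′ probe set of Actb, at 65.9 against 4.49 to 11.6 on the other 7. On one-cell array 1 the median signal was 71.8 against 26.9 to 37.9 on the other arrays, and the 18 hybridization controls, added RNAs of bacterial and phage origin, had a geometric mean of 14880 against 857 to 3718. Signal of the 3′ probe set of 18S ribosomal RNA moved with the groups, at 1583 to 2971 on the MII and 10690 to 66750 on the one-cell arrays. The 13 measured of 15 oocyte markers summed to between 72110 and 94930 on the MII arrays and between 48860 and 73380 on the one-cell arrays. Of these, 4 were called higher (Zp2, Bmp15, Nlrp5 and Nobox) and 3 lower (Gdf9, Mos and Zar1). They were not all strong in both groups: Figla averaged 34.6 and 54.35, Mos fell from 14610 to 301 and Nobox rose from 129 to 1863. The 14 measured markers of cumulus or granulosa cells summed to 616 to 783 and to 425 to 1848, the highest on one-cell array 1, with 1 called higher (Cyp11a1) and none lower. The 8 sperm markers summed to 159 to 290 and to 188 to 541, with 1 called higher (Prm2) and 1 lower (Akap4). The lowest marker was the sperm gene Tnp2, at 3.1 and 4.725 on average, and the part of these cells and of the array differences in the results was not tested.

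Polysomal mRNA of the glycosylation genes was more often lower than higher in one-cell embryos. Of the 83 tested members, 20 were lower (24.1%) and 10 higher (12.05%) at an adjusted p under 0.05 (limma, Benjamini-Hochberg over all 23336 tested probe sets). Among all 12359 tested genes 14.7% were lower and 20.1% higher. The groups did not overlap in 21 members that lay lower and 8 that lay higher, against 15.3% and 19.9% of all genes. Differences of at least 4-fold were called for 9 members that fell and 3 that rose, where 2.65% and 7.1% of all genes passed the same rule. Of these, Slc35b3 and Galnt9 among the falls and B4galt4 and Slc35c2 among the rises passed the filter mainly through the group where they were high, so their folds are poorly set. The median difference of the members was -0.24 on the log2 scale and that of all genes 0.16, a gap of -0.40. Without one-cell array 2 the members' median was 0.004 and the gap -0.20, and without one-cell array 1 the gap was -0.23. With no filter on dim probe sets the members' median was 0.019 and the gap -0.17, and with the filter at the 75th percentile the gap was -0.79. Every difference below is the one-cell mean less the MII mean of log2(signal + 10), followed by its SE from limma. The added 10 shrinks the differences of dim mRNAs.

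**Figure D1:**
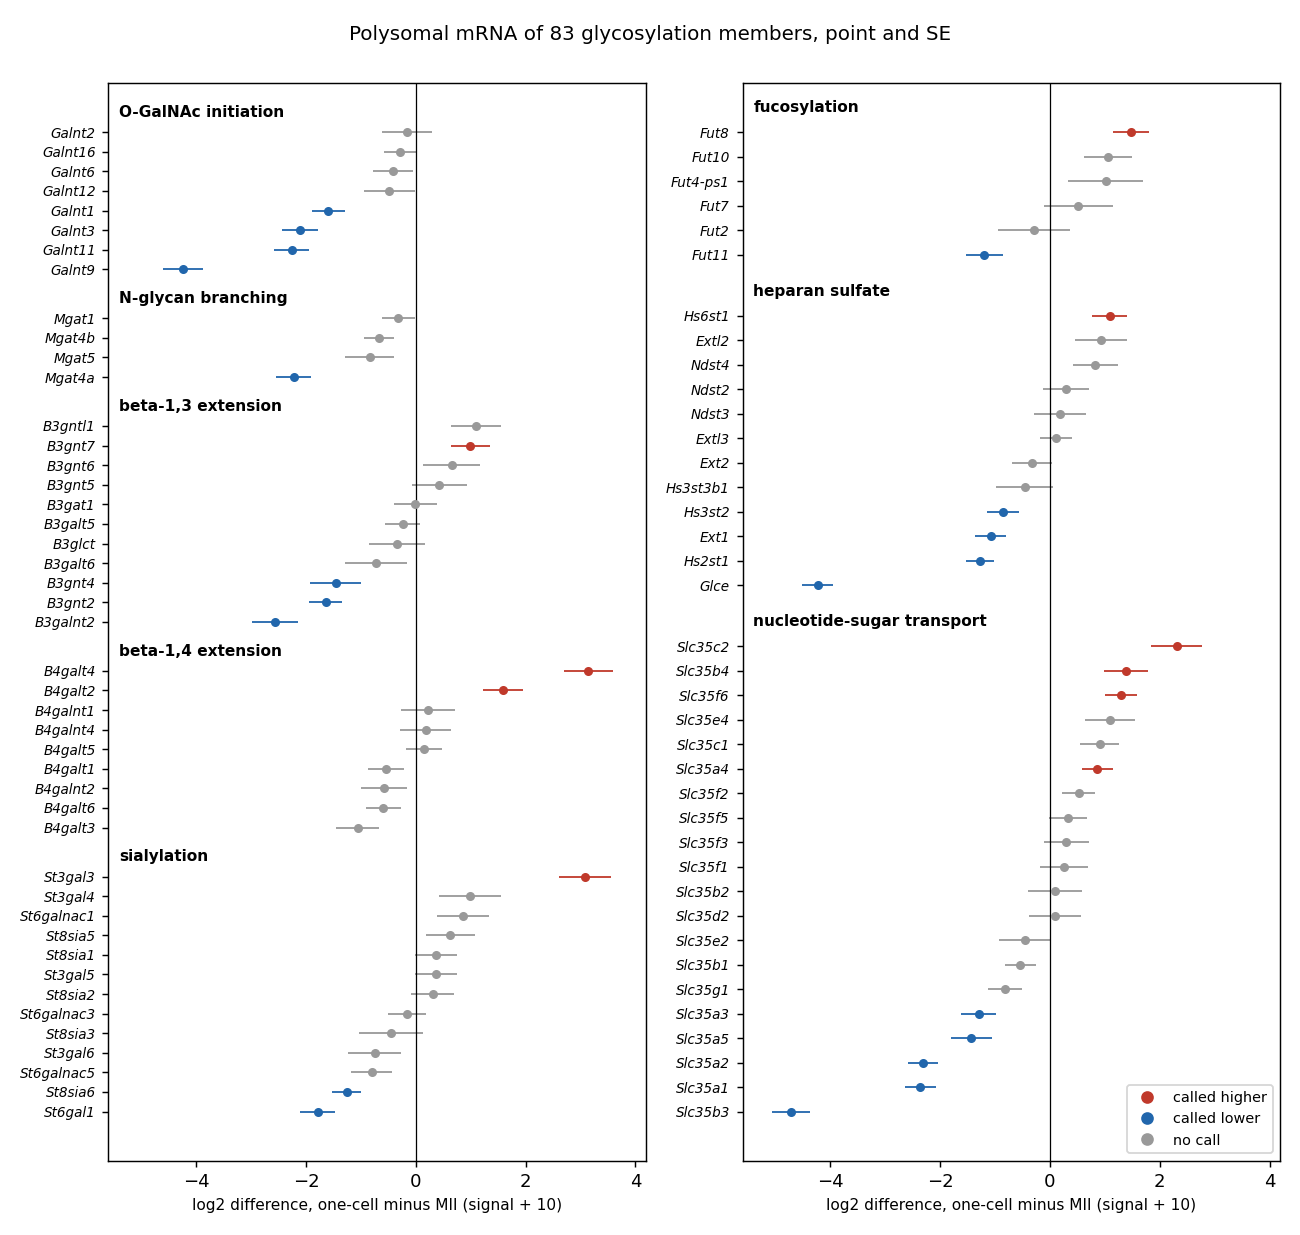
Log2 difference of each of the 83 tested members (points, with the limma SE as bars), one-cell embryo minus MII oocyte, grouped by role and coloured by call. The 20 members called lower reach -4.72 (Slc35b3) and the 10 called higher reach 3.14 (B4galt4).

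The calls lay almost wholly among the brighter members. Of the 42 members with a mean signal above 109.4 (the 75th percentile of an array, averaged over the 8), 20 were lower (47.6%) and 9 higher (21.4%), and their median difference was -0.63. Of the 7021 genes of the whole array above the same signal, 23.7% were lower and 27.0% higher, with a median of 0.02. Among the 41 dimmer members none was lower and 1, Slc35c2, was higher. In all 5338 dimmer genes 2.87% were lower and 10.9% higher. The mean signal was taken over both groups, so the split is not independent of the differences. A member can lie above 109.4 through its high group alone, as did Galnt9 (means of 286 in oocytes and 5.8 in embryos) and B4galt4 (19.1 and 212.7).

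The split between rises and falls moved with the scaling of the arrays. Rises made up 33.3% of the members called with signals as deposited, 16.7% after quantile normalization (5 higher, 25 lower) and 12.5% with each array centred on its median (3 higher, 21 lower). For all genes the share of rises was 57.7%, 48.0% and 49.0%. The median of all genes moved from 0.16 to -0.10 and -0.16, and that of the members from -0.24 to -0.58 and -0.56.

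**Figure D2:**
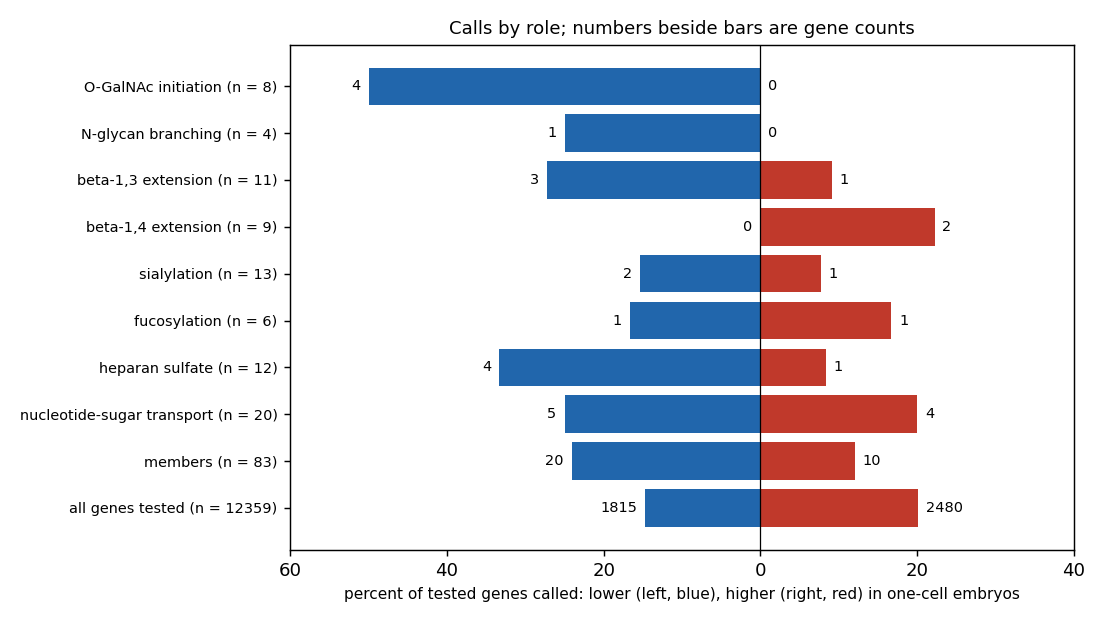
Percent of tested genes called lower (blue, left) and higher (red, right) in one-cell embryos, for each role, for all 83 members and for all 12359 genes, with gene counts beside the bars. O-GalNAc initiation shows 4 of 8 lower and 0 higher, and beta-1,4 extension 0 of 9 lower and 2 higher (22.2%). Of all genes 14.7% were lower and 20.1% higher.

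The enzymes that start mucin-type O-glycans, the Galnt family, held falls and no rises. Of 18 members on the array 8 were tested, 4 fell (50%) and none rose (limma, adjusted p under 0.05, and 0 rose at an unadjusted p under 0.05). Among all genes 14.7% were lower and 20.1% higher. Galnt11 read 530.7, 278.4, 607.9 and 567.1 on the MII arrays and 108.6, 59.3, 118.4 and 90.3 on the one-cell arrays. The lowest MII array lay above the highest one-cell array, and the fall was 4.79-fold (log2 -2.26 ± 0.32 SE, adjusted p = 5.53e-05). Galnt3 read 519.7, 871.2, 518.5 and 456.3 against 208.8, 70.7, 119.5 and 136.2, also without overlap (-2.11 ± 0.33, adjusted p = 0.000143). Galnt1, a widely expressed member of the family, read 666.3, 1471, 1148 and 1271 against 470.3, 312.0, 339.7 and 321.5, a 3.02-fold fall (-1.59 ± 0.30, adjusted p = 0.000661). The second tested probe set of Galnt3 and that of Galnt1 gave no call (-0.82 ± 0.36 and -0.65 ± 0.32), and averaged over both the differences were -1.46 and -1.12, each still past the test.

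Galnt9 showed the steepest fall of this family and the least certain size. It read 282.4, 386.5, 211.6 and 263.7 in oocytes and 13.1, 3.3, 2.6 and 4.2 in embryos (-4.24 ± 0.37, adjusted p = 5.99e-07). All 4 embryo signals lay below the median of their arrays, so the embryo level and hence the fold are poorly set, and the difference ran from -5.59 with an offset of 1 to -2.57 with an offset of 50. The other tested members, Galnt2, Galnt6, Galnt12 and Galnt16, differed by -0.49 to -0.17 with overlapping groups.

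Core 1, the galactose-bearing next step of these O-glycans, needs the chaperone C1galt1c1 (Cosmc). It read 959.9, 278.3, 614.7 and 247.9 on the MII arrays and 47.4, 49.5, 67.1 and 27.9 on the one-cell arrays (-3.04 ± 0.40, limma, adjusted p = 3.01e-05). The galactosyltransferase it folds, C1galt1, gave 0.39 ± 0.30 and no call. In the list of other O-glycan enzymes, 3 of 11 tested genes rose (27.3%), among them the Notch-modifying fringe enzyme Mfng (1.66 ± 0.28). Of this list 1 gene, C1galt1c1, fell (9.09%), where 20.1% of all genes rose and 14.7% fell.

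Among the beta-1,3 enzymes, which extend chains or build the linker sugars of proteoglycans, 3 of 11 tested members fell (27.3%) and 1 rose (9.09%). For all genes the shares were 14.7% and 20.1%. B3galnt2, which adds GalNAc to the O-mannose glycan of alpha-dystroglycan, was the clearest. It read 3130, 2694, 2690 and 2167 in oocytes against 140.0, 805.2, 672.0 and 478.8 in embryos, with one-cell array 1 the lowest (-2.56 ± 0.42, adjusted p = 0.000217). Its other probe set gave the same picture (-2.31 ± 0.42), and with the hybridization controls as a covariate the difference was -1.66, still past the test. B3gnt2, the main enzyme of poly-N-acetyllactosamine chains, read 780.8, 343.1, 553.1 and 423.5 against 124.8, 148.7, 168.6 and 181.0 without overlap (-1.64 ± 0.30, adjusted p = 0.000534). B3gnt4 fell by less (-1.46 ± 0.46, adjusted p = 0.0225) and missed the threshold without MII array 2 (adjusted p = 0.0518) or MII array 4 (0.0587), and with the hybridization controls as a covariate its difference was -0.74. B3gnt7 rose (0.99 ± 0.35, adjusted p = 0.0404) with overlapping groups, and missed the threshold without any 1 of MII arrays 1, 3 and 4 or one-cell arrays 2 and 4 (adjusted p from 0.0566 to 0.155). The call was also lost after quantile normalization (0.50, adjusted p = 0.313), after centring (0.68, adjusted p = 0.197), with the control covariate (0.77, adjusted p = 0.182), with no filter (0.0715) and with no variance trend (0.0591). The other 7 lay between -0.73 (B3galt6) and 1.10 (B3gntl1) with overlapping groups.

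The beta-1,4 galactosyl- and GalNAc-transferases, which cap N-acetylglucosamine (GlcNAc) branches and make lactosylceramide, held 2 rises and no fall in 9 tested members (limma). Rises made up 22.2% of the class, near the 20.1% of all genes, and 14.7% of all genes fell. At an unadjusted p under 0.05 there was 1 fall, B4galt3 (-1.06 ± 0.40, adjusted p = 0.0513). B4galt4 read 12.3, 2.9, 50.9 and 10.3 on the MII arrays and 150.3, 277.7, 259.4 and 163.5 on the one-cell arrays (3.14 ± 0.45, adjusted p = 5.63e-05). Only MII array 3 lay above its array's median, so the oocyte level is poorly set, and the difference ran from 1.94 with an offset of 50 to 3.96 with an offset of 1. B4galt2 read 78.6, 56.5, 51.8 and 123.4 against 123.2, 290.8, 369.3 and 252.7, where one-cell array 1 fell just inside the oocyte range (1.59 ± 0.37, adjusted p = 0.00311). That call was lost after quantile normalization (1.03 ± 0.44, adjusted p = 0.1) and after centring (1.27 ± 0.49, adjusted p = 0.0767). B4galt6, a lactosylceramide synthase with a signal of 2965 ± 694 (SD, n = 4) in oocytes and 1978 ± 493 in embryos, did not pass (-0.59 ± 0.32), and neither did B4galt1 (-0.55 ± 0.33), the galactosyltransferase once proposed as a sperm receptor.

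N-glycan branching was measured through 4 of 10 Mgat members. Mgat4a, which adds the beta-1,4 GlcNAc branch, fell on its brightest probe set from 412.7, 516.8, 574.2 and 411.0 to 48.4, 99.5, 138.7 and 112.6 (-2.22 ± 0.32, adjusted p = 6.06e-05). Its second probe set, with a mean signal of 29.8 ± 11.6 in oocytes and 103 ± 32.6 in embryos, rose (1.51 ± 0.38, adjusted p = 0.00562), and the mean of both gave -0.36 with adjusted p = 0.322. The probe sets of Mgat4a thus gave calls in opposite directions. Mgat4b gave -0.67 ± 0.28 (adjusted p = 0.079, and 0.0411 without one-cell array 1, where the difference was -0.75). Mgat5 (-0.84 ± 0.45) and Mgat1, the enzyme that opens the hybrid and complex pathway (-0.32 ± 0.30), did not pass, and all 4 lay below 0.

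Sialyltransferases, which cap glycans with sialic acid, mostly gave no call. Of 13 tested, 2 fell (15.4%, near the 14.7% of all genes) and 1 rose (7.69%, against 20.1% of all genes). St6gal1, the enzyme of alpha-2,6 sialylation of N-glycans, read 2439, 4308, 3774 and 3991 in oocytes and 634.7, 1149, 1203 and 1232 in embryos on its brightest probe set (-1.79 ± 0.32, adjusted p = 0.000426). A second, dimmer probe set rose from 74.9 ± 10.5 to 177 ± 43.0 (1.11 ± 0.30, adjusted p = 0.00927), and the mean of both gave -0.34 and adjusted p = 0.26. St8sia6, an alpha-2,8 sialyltransferase, read 306.8, 366.1, 412.6 and 334.6 against 157.5, 133.3, 158.4 and 121.5 (-1.26 ± 0.27, adjusted p = 0.00162), while its other 2 probe sets gave no call and the mean of all 3 missed the threshold (-0.63, adjusted p = 0.0607). St3gal3, an alpha-2,3 sialyltransferase, rose from 47.4, 89.6, 13.4 and 6.3 to 339.9, 226.3, 289.6 and 446.3 without overlap (3.09 ± 0.48, adjusted p = 0.000114). Only 2 of the 4 MII arrays lay above their median, so the oocyte level is poorly set. The difference ran from 2.14 to 3.60 over the alternative settings. Another rise appeared on a dim probe set of St3gal6 (2.06 ± 0.48), whose brightest one gave no call (-0.75 ± 0.49).

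Fucosyltransferases held 1 rise and 1 fall among 6 tested members, 16.7% each, near the 20.1% and 14.7% of all genes. Fut8, the only enzyme of core fucosylation of N-glycans, read 109.7, 92.7, 109.8 and 93.8 in oocytes and 289.3, 342.2, 502.4 and 160.8 in embryos (1.48 ± 0.33, adjusted p = 0.00249). All 4 embryo values lay above all 4 oocyte values, but the second probe set did not move (0.01), the mean of both missed the threshold (0.74, adjusted p = 0.0684), and so did the value after centring (1.16 ± 0.42, adjusted p = 0.0599). Fut11 fell (-1.19 ± 0.33, adjusted p = 0.0108) with overlapping groups, and averaging its 3 probe sets gave -0.39 with adjusted p = 0.289. Fut4-ps1, found by the same rule, is a pseudogene (1.01 ± 0.68, no call).

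**Figure D3:**
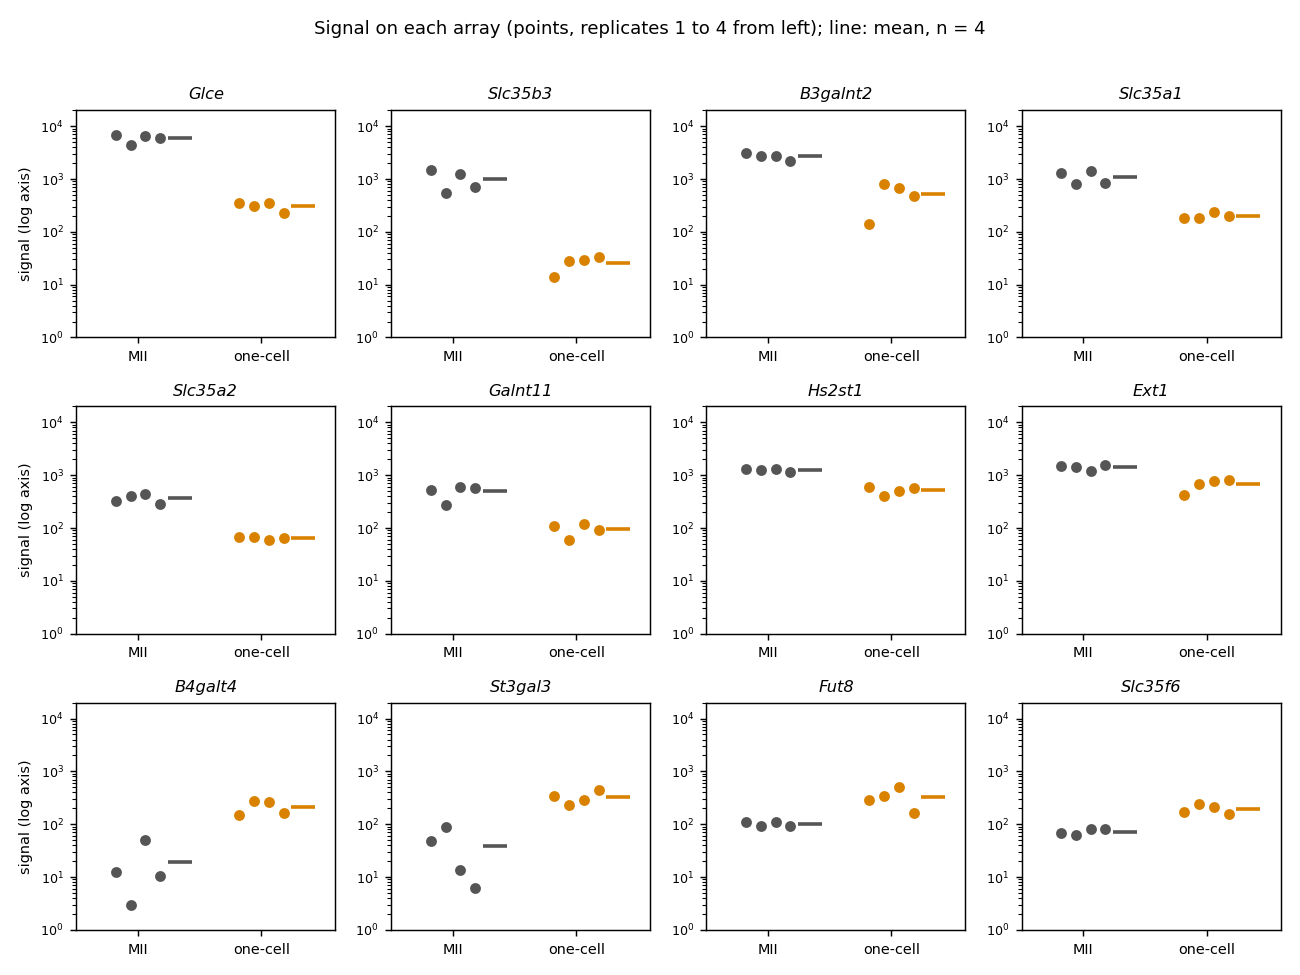
Signal of 12 members on each of the 8 arrays on a log axis (points, replicates 1 to 4 from left, with the group mean as a line). The 12 shown are a choice from the 21 members that lay lower and the 8 that lay higher without overlap. They run from Glce (4424 to 6859 in oocytes against 223.6 to 359.2 in embryos) to Slc35f6 (62.4 to 80.8 against 153.7 to 243.3). Galnt9, Galnt3 and St6gal1 are among the members without overlap that are not shown. Called members with overlap, such as B4galt2 and Fut11, are not shown, so the lack of overlap is fixed by the choice. Of all genes 15.3% lay lower and 19.9% higher without overlap.

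Heparan sulfate enzymes held 4 falls (33.3%) against 1 rise (8.33%) in 12 tested members. Of all genes 14.7% were lower and 20.1% higher. Glce, the epimerase that turns glucuronic into iduronic acid in the chain, read 6859, 4424, 6542 and 6034 on the MII arrays and 359.2, 302.9, 347.9 and 223.6 on the one-cell arrays. The fall was 18.8-fold (-4.23 ± 0.29, adjusted p = 8.36e-08) and the groups did not overlap. It rests on 1 probe set: a second, dimmer one had 63.4 ± 32.9 in oocytes and 147 ± 62.0 in embryos and did not pass (1.09 ± 0.41, adjusted p = 0.0526), and the mean of both was -1.57 (adjusted p = 0.000188).

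Hs2st1, which sulfates the iduronic acid that Glce makes, fell on all 3 of its tested probe sets. The brightest read 1296, 1280, 1312 and 1157 against 598.3, 406.1, 504.5 and 571.7 (-1.28 ± 0.26, adjusted p = 0.00127), and the other 2 gave -1.46 ± 0.30 and -1.39 ± 0.28. Ext1, a subunit of the chain polymerase, read 1478, 1430, 1221 and 1541 against 430.9, 695.7, 778.3 and 826.8 (-1.08 ± 0.29, adjusted p = 0.00775). With the hybridization controls as a covariate it gave -0.78 and adjusted p = 0.0653. Its partner Ext2 gave no call (-0.33 ± 0.37): one-cell array 1 read 351.1 where the other 3 one-cell arrays read 97.8 to 116.0. Without that array this probe set of Ext2 was called lower (-0.73, adjusted p = 0.0418). The other tested set of Ext2 gave no call (0.38 ± 0.42), and with all 8 arrays the mean of both was 0.025 (adjusted p = 0.965).

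The remaining sulfotransferases of the chain gave weaker or no differences. Hs3st2 fell (-0.85 ± 0.29, adjusted p = 0.0355) and missed the threshold without any 1 of MII arrays 2, 3 and 4 or one-cell arrays 3 and 4 (adjusted p from 0.0658 to 0.121). Its other 2 probe sets gave no call (-0.29 and 0.10), and averaging all 3 gave -0.35 with adjusted p = 0.384. Hs6st1, which sulfates the 6-O position, read 174.0, 319.8, 151.2 and 295.2 against 407.1, 393.2, 474.4 and 746.0 and was the only rise of the class (1.09 ± 0.32, adjusted p = 0.0147). It missed the threshold without MII array 1 (adjusted p = 0.0511), MII array 3 (0.0635) or one-cell array 4 (0.0628), after quantile normalization (0.0678) and after centring (0.192). Ndst2, Ndst3 and Ndst4, the N-deacetylase and N-sulfotransferases tested, lay between 0.18 and 0.82 with overlapping groups, and Ndst2 was at -0.019 after quantile normalization and -0.022 after centring. Extl3 gave no call (0.11 ± 0.30), while its other probe set rose (1.495 ± 0.29). Of the other proteoglycan genes, 3 of 18 tested fell (16.7%, near the 14.7% of all genes) and 1 rose (5.56%, against 20.1% of all genes). The dermatan sulfate epimerase Dse (-2.58 ± 0.29), the heparanase Hpse (-1.42 ± 0.32) and the core protein syndecan Sdc1 (-1.47 ± 0.35) were those that fell. With the hybridization controls as a covariate Hpse gave -0.88.

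The solute carriers of family 35, 20 tested of 26, held 5 falls and 4 rises. The shares were 25% lower and 20% higher, against 14.7% and 20.1% of all genes. This class was set by symbol, and what each of its members carries was not examined. Slc35b3 carries PAPS, the activated sulfate, into the Golgi. It read 1492, 546.0, 1235 and 709.0 in oocytes against 14.1, 27.5, 28.9 and 34.0 in embryos (-4.72 ± 0.35, adjusted p = 1.84e-07). Only 1 embryo array lay above its median, so the size of the fall is poorly set, and the difference ran from -5.15 with an offset of 1 to -3.68 with an offset of 50. The other PAPS carrier, Slc35b2, was dim in both groups (50.9 ± 24.8 and 61.2 ± 43.7) and did not pass (0.09 ± 0.49, and -0.24 after quantile normalization).

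Slc35a1, the carrier of CMP-sialic acid, read 1295, 811.5, 1429 and 854.1 against 184.1, 181.3, 233.6 and 201.8 (-2.36 ± 0.28, adjusted p = 1.01e-05), and its second probe set fell too (-1.07 ± 0.36). Slc35a2, the carrier of UDP-galactose, read 327.1, 410.5, 437.1 and 282.8 against 67.2, 68.8, 59.0 and 63.6 (-2.31 ± 0.28, adjusted p = 1.19e-05). None of its other 3 probe sets passed, but the mean of all 4 did (-0.90, adjusted p = 0.0334). Slc35a3, a carrier of UDP-GlcNAc, read 198.3, 194.4, 315.1 and 321.0 against 68.2, 141.0, 103.6 and 82.8 (-1.30 ± 0.31, adjusted p = 0.00431). The call was lost as the mean of its 4 probe sets (-0.08, adjusted p = 0.858). Slc35a5 fell on 2 of its 5 probe sets (-1.43 ± 0.37 and -0.88 ± 0.28). With the hybridization controls as a covariate Slc35a5 gave -0.64 and adjusted p = 0.133.

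The 4 carriers that rose did so from low oocyte signals or by small steps. Slc35c2 read 7.4, 17.5, 9.1 and 38.4 against 211.0, 53.0, 105.7 and 155.0 (2.31 ± 0.47, adjusted p = 0.0012), with a single oocyte array above its median, and the difference ran from 1.35 with an offset of 50 to 2.90 with an offset of 1. Slc35f6 read 66.9, 62.4, 79.9 and 80.8 against 168.4, 243.3, 208.2 and 153.7 (1.29 ± 0.29, adjusted p = 0.00276), and its second probe set rose by 2.22 ± 0.43. After quantile normalization and after centring its brightest set no longer passed (adjusted p = 0.0678 and 0.0553). Slc35b4, a carrier of UDP-xylose and UDP-GlcNAc, rose on 2 of 3 probe sets (1.39 ± 0.40, with overlapping groups, and 1.94 ± 0.35), and the call of the brightest was lost under both scalings (adjusted p = 0.248 and 0.169). Slc35a4 rose from 415.1, 608.5, 437.6 and 646.9 to 711.8, 1012, 1192 and 930.3 (0.86 ± 0.28, adjusted p = 0.0275). It missed the threshold without any 1 of MII arrays 1 and 3 or one-cell arrays 2, 3 and 4 (adjusted p from 0.0579 to 0.0908). The call was also lost after centring (0.54, adjusted p = 0.396) and as the average of its 4 probe sets (0.555, adjusted p = 0.0949), 1 of which lay at -0.84. The carrier of GDP-fucose, Slc35c1, gave 0.91 ± 0.35 (adjusted p = 0.0609, and 0.024 without one-cell array 2, at 1.15). Slc35b1 (-0.54 ± 0.28) and Slc35d2 (0.09 ± 0.47, and -0.27 after quantile normalization) did not pass.

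**Figure D4:**
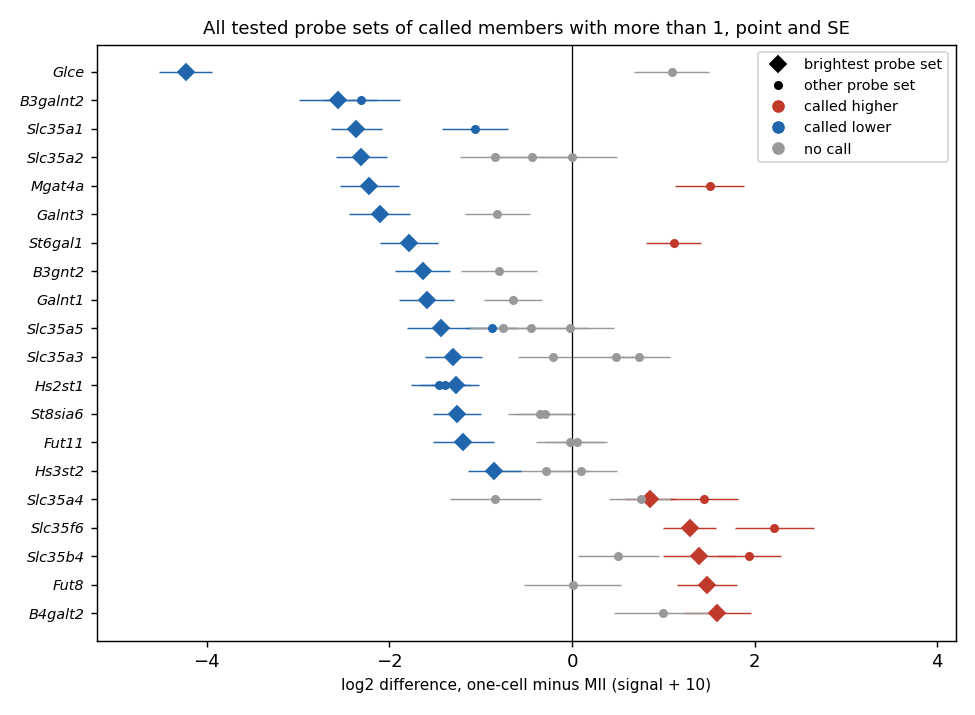
Log2 difference of every tested probe set (point, with the limma SE) for the 20 called members with more than 1, diamonds marking the brightest. Hs2st1, B3galnt2, Slc35a1 and Slc35f6 have all their probe sets called in 1 direction, while Mgat4a and St6gal1 have calls on both sides of 0.

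Agreement between probe sets differed from gene to gene. Of the 30 called members, 10 had a single tested probe set. Of the other 20, every further set gave the same call in 4 (B3galnt2, Hs2st1, Slc35a1 and Slc35f6) and some did in 3 (Slc35a4, Slc35a5 and Slc35b4). In 11 no further set was called, and in Mgat4a and St6gal1 a further set was called the other way. With all sets of a gene averaged, 10 members were higher and 17 lower, with a median difference of 0.06 against 0.20 for all genes, a gap of -0.14.

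The enzymes that make the activated donors are not members, but feed the same reactions. Of 20 tested, 7 fell (35%) and 2 rose (10%), with a median of -0.53, where 14.7% and 20.1% of all genes did. Uxs1, which makes the UDP-xylose that starts proteoglycan chains, read 3370, 4274, 4449 and 4333 in oocytes and 478.1, 615.4, 687.4 and 458.9 in embryos (-2.86 ± 0.28, limma, adjusted p = 1.63e-06). Its second probe set was not called, and the mean of both was -1.41. Cmas, which makes CMP-sialic acid, read 4988, 2688, 4657 and 3587 against 498.9, 1386, 1315 and 779.1 (-2.06 ± 0.36). The PAPS synthase Papss1 read 4544, 3607, 4513 and 2952 against 256.6, 1635, 1247 and 759.9 (-2.26 ± 0.45), with one-cell array 1 lowest. Each of these 3 had no overlap between groups.

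The genes of the 6 donors are set side by side here. For CMP-sialic acid Cmas and Slc35a1 fell, while the earlier steps Gne (0.47 ± 0.32), Nans (0.45 ± 0.32) and Nanp (1.31 ± 0.51) were not called. For PAPS, Papss1 and Slc35b3 fell, while Papss2 (-0.58 ± 0.37) and the carrier Slc35b2 (0.09 ± 0.49) were not called. For UDP-GlcNAc the brightest probe sets of Gfpt1 (-1.49 ± 0.31), Gnpnat1 (-1.46 ± 0.34), Uap1 (-1.19 ± 0.34) and Slc35a3 fell, but the mean over the probe sets did not pass for Gfpt1 (-0.59, adjusted p = 0.0856) or Slc35a3. Gfpt2 (0.345 ± 0.35) and the carrier Slc35d2 (0.09 ± 0.47) were not called, and Slc35b4, which also carries UDP-GlcNAc, rose. UDP-xylose showed the opposite in its carrier, with Ugdh (-1.11 ± 0.32) and Uxs1 lower and Slc35b4 higher. UDP-galactose showed the opposite in an enzyme, with Galt higher (1.25 ± 0.37) and Slc35a2 lower. Ugp2, also of this donor, was not called (-1.01 ± 0.40, limma, adjusted p = 0.0672), though the mean over its 3 probe sets passed (-0.90, adjusted p = 0.049). For GDP-fucose, Pmm1 (1.12 ± 0.32) was the only call.

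**Figure D5:**
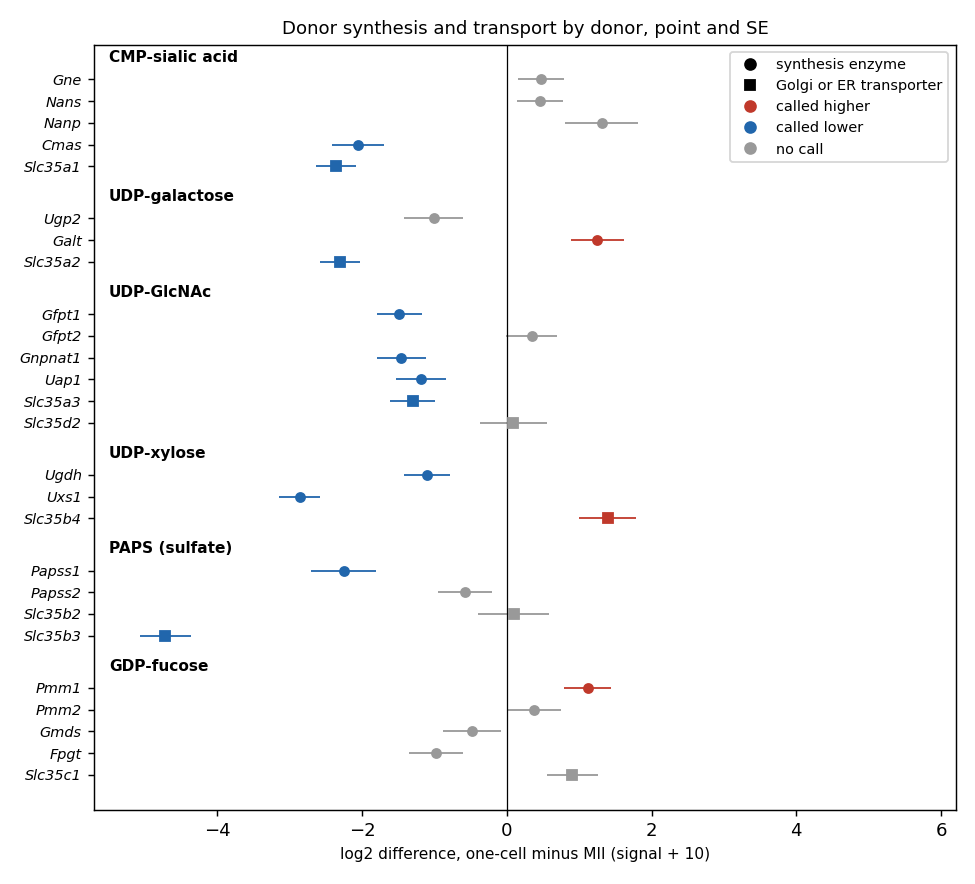
Log2 difference (point, with the limma SE) of tested enzymes that make each activated donor (circles) and of its carriers (squares). For CMP-sialic acid Cmas lies at -2.06 and Slc35a1 at -2.36 and for PAPS Papss1 lies at -2.26 and Slc35b3 at -4.72, while for UDP-xylose the enzymes lie below 0 and Slc35b4 at 1.39.

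The early steps of N-glycan synthesis, before the Golgi, moved in both directions. In dolichol-linked glycan assembly 8 of 18 tested genes rose (44.4%) and 3 fell (16.7%), with a median of 0.71. Of all genes 20.1% rose and 14.7% fell. Dhdds, a subunit of the enzyme that makes the dolichol backbone, rose from 21.1, 29.7, 22.3 and 27.1 to 363.9, 195.6, 199.1 and 274.2 (2.90 ± 0.32), with all 3 probe sets called. All 4 oocyte signals of Dhdds lay below the median of their arrays, so the size is poorly set, and it ran from 2.005 with an offset of 50 to 3.28 with an offset of 1. Dpm2, of the dolichol-phosphate-mannose synthase, rose by 1.84 ± 0.30. In the oligosaccharyltransferase, which moves the glycan to protein, 4 of 11 fell (36.4%) and 3 rose (27.3%). Its catalytic subunit Stt3a read 3527, 4117, 4152 and 3342 against 226.6, 646.2, 643.1 and 353.0 (-3.11 ± 0.34, with all 3 probe sets called). The alternative catalytic subunit Stt3b gave 0.05 ± 0.35 and no call on its brightest probe set. A further set of Stt3b was called, and the mean over its 2 sets rose (0.74, limma, adjusted p = 0.026). The small subunit Ost4 rose (2.44 ± 0.31). Of 14 genes of N-glycan trimming and glycoprotein folding, 4 rose (28.6%) and 4 fell (28.6%). Among them the lectin chaperone Calr rose (2.30 ± 0.26) and the mannosidase-like Edem3 fell (-2.18 ± 0.30). None of 5 glycosphingolipid genes was called by limma, and 2 had an unadjusted p under 0.05. Gal3st1 was at 0.84 ± 0.36 (adjusted p = 0.0832, and 0.0491 without one-cell array 3). Ugcg, the glucosylceramide synthase, was at -0.73 ± 0.32 (adjusted p = 0.1, and 0.0339 without MII array 2).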

How the data were processed

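Polysomal RNA of 4 MII oocyte and 4 one-cell embryo batches was amplified and biotin-labelled, per the labels. The values, as deposited by the authors, are linear intensities, 1 for each probe set on each array. The array software, scaling and genome build were not given in the sources used here. The 2% trimmed mean was 150 on all 8 arrays, so no scaling was added. Of 45101 probe sets, 64 controls were left out, and 34945 had 1 gene symbol in GEO's platform annotation.

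Log2 was taken after adding 10 (close to the table's lower quartile, 9.6). Probe sets above the median of their array's non-control probe sets on at least 4 arrays (23336) entered limma 3.58.1 (R 4.3.3): lmFit, then eBayes with trend, two-sided, with Benjamini-Hochberg adjustment and a threshold of 0.05. The fit was tested on simulated data. The number of arrays limits the precision. No detection calls were used.

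The members and lists were chosen with earlier results of these data known. Named genes were the 5 largest calls without overlap in each direction, the 2 smallest p per role and list, genes with opposing probe sets, and a panel of carriers and heparan sulfate enzymes (Slc35d1 was not tested and Ndst1 was not analysed here). Every other gene named, the 10 other called members included, the donor groupings and the split by brightness were chosen after values were seen. Alternatives covered normalization (quantile, median centring), the offset (1 and 50), the filter, the variance trend, array weights, a replicate block, the controls as a covariate, each array left out, and probe sets averaged.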

Additional observations from a re-analysis of the deposited data

Results flagged for a closer look

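In 3 of the 102 groups of 4 arrays checked for the genes named above, 1 array lay far from the other 3 by Dixon's test on the log2 scale; chance alone flags about 1 group in 20. St6gal1 read 634.7 on one-cell array 1 and 1149 to 1232 on the other one-cell arrays. Ext2 read 351.1 on one-cell array 1 and 97.8 to 116.0 on the others. Uxs1 read 3370 on MII array 1 and 4274 to 4449 on the others. The fall of St6gal1's brightest probe set and that of Uxs1 passed the test without each of the 8 arrays in turn.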

How the results depend on the processing

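Of the 30 called members, 14 kept direction and call in all alternatives run for them, 16 lost the call in at least 1, and none reversed. The 14 were Slc35b3, Galnt9, Glce, B3galnt2, Slc35a1, Slc35a2, Galnt11, Galnt3, Galnt1, B3gnt2, Hs2st1, B4galt4, St3gal3 and Slc35c2; B4galt4 and Slc35c2 were too dim for the filter at the 75th percentile. The number of members higher was 10, but 5 after quantile normalization and 3 after centring. Leaving out 1 array gave 7 to 11 higher and 18 to 25 lower members, and 6077 to 8058 called probe sets against 7493 with all 8. Without one-cell arrays 1 and 4, chosen after the controls were seen, 8 were higher and 24 lower. Same-numbered arrays did not deviate together (correlations -0.16 to 0.14). So few correlations cannot decide whether the numbers pair the samples. With the replicate block the counts were 10 higher and 20 lower, with 7209 probe sets called. B3gnt7 lost its call under the block (adjusted p = 0.0569); no other named gene changed its call. Values that changed sign belonged to genes with no call. Slc35b2 (0.09) was at -0.24 after quantile normalization, -0.22 after centring and -0.27 to 0.52 without single arrays. Slc35d2 (0.09) was at -0.27, -0.23, -0.13 with array weights, -0.38 with the control covariate, -0.41 without one-cell arrays 1 and 4, and -0.29 to 0.39 without single arrays. Ndst2 (0.295) was at -0.019, -0.022, -0.051, -0.48 and -0.26 under the same 5, and -0.11 to 0.605 without single arrays. Ext2 (-0.33) was at 0.025 over its probe sets. The cause of these shifts was not tested. Signals near an array's median set no firm fold.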
